A study of Mus musculus with 8 samples.

Results

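Cxcl9-positive C1q macrophages are tumour macrophages that carry transcripts of both the complement component C1q and Cxcl9, a chemokine that draws T cells. The tumours were formed by the mouse hepatoma line Hepa1-6, and their cells were sequenced one by one from droplets at the 3′ ends of transcripts. The cells were chosen by their deposited expression values. A cell counted as a C1q macrophage when the mean deposited value of C1qa, C1qb and C1qc was at least 1.5 and the mean of the T-cell genes Cd3g and Trbc2 was below 0.5. Of the 3905 cells that met both conditions, 1925 had a Cxcl9 value of at least 1 and form the population described here, out of 53528 cells in all. The other 1980 C1q macrophages are the reference throughout. Since Cxcl9 itself chose the cells, its level is a description, and so is every difference between these groups of macrophages.

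The tumours came from 4 groups: unedited Hepa1-6 cells (genotype WT) or Soat1-edited cells, each in animals given intraperitoneal PBS or an intraperitoneal antibody against the T-cell checkpoint receptor PD-1. Soat1 encodes an enzyme that esterifies cholesterol. For the edited tumours the titles read KO while the genotype reads Soat1 knockdown, and each group has a cDNA entry and an oligo entry, 8 entries in all. The labels name neither the strain nor the age of the animals, nor how many tumours or cell clones a group holds. The deposited cells fall into 6 sets by the last number of the cell name, and nothing ties a set to a group, so neither the editing nor the antibody could be compared. The labels do not say what a set is, and each is given by its own value or by the range over sets.

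CXCL9 and CXCL10 are secreted ligands of CXCR3, a receptor carried by activated CD8 T cells, T helper type 1 cells and NK cells, and macrophages are among their main sources in tumours. Their genes are induced by interferon gamma together with guanylate-binding proteins, immunity-related GTPases and MHC class II. Type I interferons induce an overlapping set that includes the Ifit and Oas families. C1q is the recognition part of the classical complement pathway, and its A, B and C chains are made largely by tissue macrophages.

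Whole UMI counts, the numbers of distinct transcript molecules captured, could be recovered for set 1 alone. In that set the Cxcl9-positive macrophages had a median of 3261 UMIs per cell (1006 to 40220) and the other C1q macrophages 2270 (1001 to 30879), against 11098.5 over all 9370 cells. The positive cells were the deeper ones, and a deeper cell is likelier to hold a Cxcl9 UMI at all, while 1 UMI gives a higher value in a shallower cell. Sets 2 to 6 hold values below 0 (22.9% to 33.4% of their values), from an adjustment that no source used here describes, so the 6 sets were not treated as independent repeats. Cell names carry running numbers and no barcodes, so barcodes shared between sets could not be counted.

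The Cxcl9-positive share of C1q macrophages ranged from 42.2% to 57.0% over the sets. It was 47.9% in set 1 (303 of 632 cells), 50.2% in set 2 (235 of 468), 51.3% in set 3 (437 of 852), 42.2% in set 4 (324 of 767), 57.0% in set 5 (284 of 498) and 49.7% in set 6 (342 of 688). Set 4 was lowest, with an exact 95% Clopper-Pearson interval of 38.7% to 45.8%, and set 5 was highest, at 52.5% to 61.4%. Over all sets the share was 49.3%, and it was 29.8% with a Cxcl9 limit of 2. The intervals of sets 4 and 5 do not overlap, but they cover counting error alone, and the groups behind the sets are unknown. The Cxcl9 limit was also applied to adjusted values in sets 2 to 6. The other macrophages had a mean Cxcl9 value of -0.13 in set 4, 0.10 in set 5 and -0.13 in set 6. Values of 0 or less were held by 342 of the 443 others in set 4 and 76 of the 214 in set 5. The part of the adjustment in these shares was not tested. As a share of all cells, the Cxcl9-positive macrophages made up 3.1% to 4.15% of a set.

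**Figure D1:**
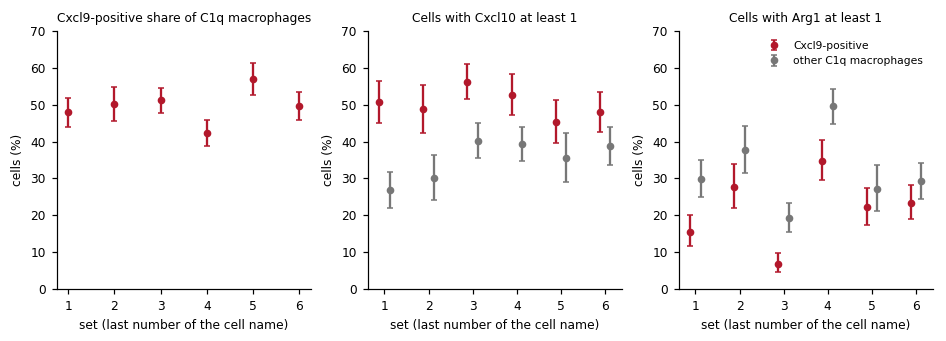
Percent of cells (vertical axes, 0 to 70) in each of the 6 sets, with exact 95% binomial intervals as bars. Left, Cxcl9-positive cells among C1q macrophages; middle and right, cells with a Cxcl10 or Arg1 value of at least 1 among Cxcl9-positive (red) and other (grey) C1q macrophages. In each set the red Cxcl10 point is above the grey one and the red Arg1 point below it, with overlapping intervals in sets 5 and 6 for Cxcl10 and in sets 2, 5 and 6 for Arg1.

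The limit of 1 runs through a continuous range of values. The lowest Cxcl9 value of a positive cell was 1.01 to 1.05 over the sets, the median 1.96 to 2.36 and the highest 3.85 to 4.63. Just inside the limit, 115 positive cells lay between 1 and 1.2, and just outside it 98 of the other macrophages lay between 0.8 and 1. In set 1, 85 of the 303 positive cells held 1 Cxcl9 UMI, 161 held 2 to 9, and 57 held 10 or more, up to 52. Those 57 cells held 61.4% of the population's 1955 Cxcl9 UMIs. Of the 329 other macrophages, 307 held no Cxcl9 UMI, 21 held 1 and 1 held 3. A cell with 1 UMI is positive or not according to its depth, so the population contains a strongly expressing minority beside many cells known by 1 or a few molecules. With every set 1 cell thinned to 1000 UMIs before the rule was applied, 209 of 598 C1q macrophages were positive (34.9%), 198 of them among the original 303.

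Most cells with a Cxcl9 value of at least 1 were not C1q macrophages by this rule. The Cxcl9-positive macrophages were 19.8% to 31.5% of such cells over the sets, T-gated cells (mean of Cd3g and Trbc2 at least 0.5 and C1q mean below 1.5) were 5.50% to 19.2%, cells over both limits 1.45% to 3.41%, and cells in neither gate 56.3% to 67.9%. T cells are not a known main source of Cxcl9, and 3.53% to 9.17% of T-gated cells reached the limit. Whether that share reflects free RNA, mixed cells or expression was not tested. In set 1, 8.26% of T-gated cells, at a median depth of 4861 UMIs, and 6.69% of the other macrophages held a Cxcl9 UMI. Of the cells in neither gate, 8.15% to 22.7% reached the limit over the sets. After thinning to 1000 UMIs in set 1, 72.6% of the positive macrophages, 0.608% of the other macrophages and 1.27% of T-gated cells held a Cxcl9 UMI.

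One macrophage gene that the rule did not use is given beside those that it used. Ms4a7, a membrane protein of macrophages, was at 191 CPM (UMIs of the gene per 1000000 UMIs) in the Cxcl9-positive cells and 241 CPM in the others, and was seen in 0.666% of T-gated cells. Of the genes that the rule used, C1qa was at 5541 CPM in the positive cells and 5679 in the others, a ratio of 0.98, while C1qb had a ratio of 1.13 and C1qc of 1.28. Since the rule required C1q in both groups, those ratios are a description. T-gated cells were held below the C1q limit, so their low share with Ms4a7 is a description too. Ms4a7 is 1 of 20 listed genes of C1q and resident macrophages outside the rule. Of the 18 measured, 7 were called lower in the positive cells and none higher, as described further on. No group of dendritic cells was compared, so the name rests on C1q as the rule required it.

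Defining genes of lymphocytes were near 0 in both groups of macrophages. For T-cell genes that was set in part by the rule, which held Cd3g and Trbc2 low, while the T gate required them. Cd3d, a chain of the T-cell receptor complex, gave 10 UMIs in the Cxcl9-positive cells and 12 in the others, and the summed T and NK list stood at 255 and 183 CPM, against 10974 CPM in T-gated cells, with Gzmk and Klra8 of 32 genes at 0 in the positive cells. The B and plasma cell list summed to 21.7 and 48.4 CPM, with 4 of 9 genes at 0 in the positive cells, Ighd, Iglc2 and Mzb1 among them. Fibroblast genes summed to 83.9 and 114 CPM, with Lum, Pdgfra and Col6a3 of 18 genes at 0 in the positive cells, and the 4 endothelial genes to 27.5 and 17.6 CPM, with Cdh5 at 0. The neutrophil list summed to 187 and 465 CPM and the monocyte list to 1006 and 1496 CPM, both lower in the positive cells, with no neutrophil gene and Ace and Cd177 of 15 monocyte genes at 0. Hepatoma transcripts were found in both groups of macrophages and in T-gated cells. Alb, encoding albumin, was detected in 85.1% of positive cells, 84.2% of the others and 83.2% of T-gated cells, at unequal depth. The hepatoma list summed to 5458 CPM in the positive cells, 7003 in the others and 4962 in T-gated cells, a ratio of 0.78 (0.755 to 0.804) between the macrophage groups. The part of these free or mixed transcripts in the differences below was not tested.

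Summed over set 1, 58 of 957 genes were at least 2-fold higher in the Cxcl9-positive cells, or 6.06% of the genes with at least 20 UMIs in both groups together. A further 73 genes, or 7.63%, were at least 2-fold lower. The sign of the difference was the same in all 6 sets for 39 of the 58 higher and 41 of the 73 lower genes. On the deposited natural log scale, 32 of 1994 genes (1.6%) were higher by at least 0.25 in all 6 sets, and 5 genes (0.251%) were lower. By sign alone, 13.9% of these genes were higher in all 6 sets and 7.67% were lower in all 6. These shares are the background against which the counts of each gene list are read. The median log2 ratio over the 957 genes was -0.02, so the comparison was centred near 0.

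Cxcl10, the other CXCR3 ligand in the table, was higher in the Cxcl9-positive cells. Its mean deposited value in the Cxcl9-positive cells of sets 1 to 6 was 1.44, 1.07, 1.30, 1.17, 0.85 and 0.95, and in the other macrophages 0.67, 0.55, 0.85, 0.73, 0.58 and 0.56. The positive cells were higher in each set, by 0.27 to 0.77, although set 5 of the positive cells equalled set 3 of the others to the second decimal. In set 1 UMIs Cxcl10 was at 1261 and 339 CPM, a ratio of 3.72 with an exact Poisson interval of 3.33 to 4.17. It was detected in 54.8% of positive cells and 32.5% of the others, beside 24.2% of T-gated cells at their greater depth. Cxcl10 was far from universal: cells with a value of at least 1 were 45.4% to 56.3% of the positive cells and 26.7% to 40.2% of the others. Cxcl11, the third CXCR3 ligand, was not analysed here.

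The stretches before the start sites of both chemokines and of Gbp2b and Gbp5, the guanylate-binding protein genes with the highest ratios, are shown because these genes were higher in the same cells. Each is the 250 bases before the RefSeq gene start in GRCm38.p6, on the gene's strand: Cxcl9 at chr5:92328080-92328329 (minus), Cxcl10 at chr5:92348890-92349139 (minus), Gbp2b at chr3:142594597-142594846 (plus) and Gbp5 at chr3:142496684-142496933 (plus). Capitals mark matches, on either strand, to 3 motifs. These are TTCNNNGAA (the letters of a gamma-activated site), GAAA followed after 2 free bases by GAAA (of an interferon-stimulated response element, ISRE) and GGG followed after 2 free bases by TTTCC (of an NF-kappaB site).
Cxcl9: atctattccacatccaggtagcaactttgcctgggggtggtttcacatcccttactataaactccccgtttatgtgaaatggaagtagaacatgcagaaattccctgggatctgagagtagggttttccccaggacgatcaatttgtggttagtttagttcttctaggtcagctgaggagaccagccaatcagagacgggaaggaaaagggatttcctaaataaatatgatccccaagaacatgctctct
Cxcl10: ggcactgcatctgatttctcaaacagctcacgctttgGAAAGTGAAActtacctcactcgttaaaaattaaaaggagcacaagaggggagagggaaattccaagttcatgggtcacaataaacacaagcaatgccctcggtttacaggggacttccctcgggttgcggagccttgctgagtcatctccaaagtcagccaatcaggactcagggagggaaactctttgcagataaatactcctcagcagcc
Gbp2b: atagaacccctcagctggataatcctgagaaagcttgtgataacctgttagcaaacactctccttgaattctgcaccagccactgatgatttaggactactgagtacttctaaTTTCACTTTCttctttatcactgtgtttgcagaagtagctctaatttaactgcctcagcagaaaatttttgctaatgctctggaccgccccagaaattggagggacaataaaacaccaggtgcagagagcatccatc
Gbp5: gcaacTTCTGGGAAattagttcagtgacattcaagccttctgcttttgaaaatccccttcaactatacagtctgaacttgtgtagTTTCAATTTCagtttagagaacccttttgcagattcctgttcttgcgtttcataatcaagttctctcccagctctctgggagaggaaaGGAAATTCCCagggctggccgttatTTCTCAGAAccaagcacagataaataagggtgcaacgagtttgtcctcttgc

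The ISRE letters began 213 bases before the start of Cxcl10, 137 before Gbp2b and 165 before Gbp5. Gbp5 also held TTCNNNGAA at 245 and 52 bases and the NF-kappaB letters at 77 bases before its start, and none of these matches overlapped another. The Cxcl9 window held none of these exact letters, which says nothing of the factors. Of the 27025 gene symbols with a RefSeq window of this length, 8.13% had TTCNNNGAA in any of their windows. The ISRE letters were found for 3.46% and the NF-kappaB letters for 1.65%. The matches describe the sequence and were not tied to binding.

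Interferon-induced GTPases, which attack vacuoles that hold intracellular pathogens, leaned towards the Cxcl9-positive cells. All 12 measured members had a log2 ratio above 0, and the median was 0.74 against -0.02 over all genes. Of the 12, 4 were called higher and none lower, against 6.06% and 7.63% of all measured genes. Summed, the list was at 1721 CPM in the positive cells, 802 in the others and 682 in T-gated cells. Gbp2b gave 289 UMIs in the positive cells and 53 in the others, a ratio of 4.48 (3.34 to 6.13). It was detected in 40.6% of positive cells, 11.9% of the others and 1.13% of T-gated cells. Its mean deposited value over sets 1 to 6 was 0.67, 0.63, 0.71, 0.47, 0.62 and 0.55 in the positive cells, all above the highest of the others, which were 0.16, 0.30, 0.35, 0.13, 0.18 and 0.24. Gbp5, which promotes inflammasome assembly, had a ratio of 3.51 (2.52 to 5.0), and Gbp4 of 2.63 (2.07 to 3.37). The immunity-related GTPase Iigp1 was at 380 and 141 CPM, a ratio of 2.70 (2.26 to 3.25).

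The remaining GTPases were higher by less. Gbp2 had a ratio of 1.80, Igtp of 1.73, Gbp7 of 1.64, Ifi47 of 1.5 and Irgm1 of 1.47, each with the sign of set 1 in all 6 sets. Irgm2, with a ratio of 1.48, was higher in 4 sets, and Gm4951, with 1.62, in 5. Gbp6 did not stand apart, with a ratio of 1.03 (0.58 to 1.84). Gbp10, Tgtp1 and F830016B08Rik had too few UMIs to be counted. Without the cells that held a UMI of the proliferation genes Top2a or Mki67, the median of the list was 1.2.

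Other genes of the interferon gamma response were higher as well, with a median log2 ratio of 0.58. Of 21 measured, 5 were called higher and none lower, against 6.06% and 7.63% of all measured genes. Serpina3g, a serine protease inhibitor induced in activated myeloid cells, was at 192 and 43.1 CPM, a ratio of 4.45 (3.27 to 6.16). Its deposited means were 0.65, 0.63, 0.57, 0.46, 0.70 and 0.51 in the positive cells and 0.16, 0.19, 0.20, 0.12, 0.27 and 0.18 in the others, with no overlap. Slamf8, a myeloid surface receptor, was detected in 55.1% of positive cells and 24.6% of the others, beside 1.40% of T-gated cells, with a ratio of 2.30 (1.90 to 2.80). Socs1, a feedback inhibitor of cytokine signalling, had a ratio of 2.47 (1.52 to 4.14), and the ion channel gene Calhm6 of 2.11 (1.70 to 2.63). Ly6i was the fifth, with 22 UMIs against 5. The regulator Irf8 was higher by less than 2-fold, with a ratio of 1.46. Batf2 had a ratio of 2.01 but was not called, being just under the threshold once the pseudocount was added. C4b, encoding complement component 4, was lower in all 6 sets, with a ratio of 0.72 (0.59 to 0.88). In all, 17 of the 24 listed genes present in the table were higher in every set and 1 lower, beside 13.9% and 7.67% of all genes.

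Genes induced mainly by type I interferon did not follow as a group in set 1, though only 19 of the 52 listed were among the deposited genes. Of 15 measured, none was called higher or lower, the median log2 ratio was 0.01, and 8 were above 0. On the deposited scale 6 of the 19 were higher in all 6 sets and none was lower in all 6. Over all genes those shares were 13.9% and 7.67%. The listed genes outside the 19 could not be read. The summed list was at 1664 CPM in the Cxcl9-positive cells and 1511 in the others, a ratio of 1.10. Isg15, a ubiquitin-like protein, had a ratio of 1.73 (1.49 to 2.01) and was higher by 0.25 to 0.45 in all 6 sets. Ifi205 had a ratio of 2.02 (1.31 to 3.17) and Ifit2 of 1.55 (1.09 to 2.22). Ifit1 was level at 1.01 (0.61 to 1.68), and Ifitm3, a membrane protein that restricts virus entry, was at 0.85 (0.75 to 0.97). The difference between this list and the GTPases was not tested.

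MHC class II genes, which present peptides to CD4 T cells, were higher in the Cxcl9-positive cells at all 7 measured members, though mostly by less than 2-fold. Summed, they were at 10407 CPM against 6814 in the other macrophages and 524 in T-gated cells, a ratio of 1.53 (1.49 to 1.57), and the median log2 ratio was 0.71. H2-Ab1, a beta chain, was at 2439 and 1477 CPM. Its deposited means were 2.86, 2.90, 2.93, 2.54, 2.91 and 2.74 in the positive cells, above every set of the others at 1.89, 2.11, 2.07, 2.01, 2.06 and 2.17. The invariant chain Cd74 had a ratio of 1.60 (1.52 to 1.70) and was higher by 0.62 to 1.01 in the sets, and 94.1% of positive cells and 75.7% of the others held a Cd74 UMI. H2-Aa, H2-Eb1 and the peptide-loading gene H2-DMa had ratios of 1.58, 1.63 and 1.73. Only H2-DMb2, the other chain of the loading complex, passed 2-fold, at 2.52 (1.64 to 3.98), and its log2 ratio was 0.99 without cells that held a dendritic-cell gene. On the deposited scale 6 of the 8 listed genes were higher by at least 0.25 in all sets. The class II median was 0.48 when the reference was limited to other macrophages with an Arg1 value below 1.

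Of 3 measured MHC class I genes 1 was called higher, beside 6.06% of all measured genes. All 3 had a log2 ratio above 0, and the median was 0.38. H2-K1, present in nearly every cell, had a ratio of 1.06 (1.02 to 1.10), H2-Q6 of 1.32 with 29 and 18 UMIs, and H2-Q7, a nonclassical gene, of 2.26 (1.77 to 2.90). H2-Q7 was detected in 40.9% of positive cells, 17.3% of the others and 81.6% of T-gated cells.

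Costimulatory, inhibitory and cytokine genes were mostly near the background, with 0 of 9 called higher, 1 lower and a median log2 ratio of 0.12. Cd86, a ligand of CD28, had a ratio of 1.70 (1.37 to 2.12) and Cd274, encoding PD-L1, of 1.55 (1.24 to 1.95). Both were higher in all 6 sets, by 0.17 to 0.38 for Cd86 and 0.07 to 0.20 for Cd274. Il1b was detected in 49.2% of positive cells and 31.9% of the others, and 5.40% of T-gated cells, with a ratio of 1.37 (1.24 to 1.51). Il10, an anti-inflammatory cytokine, gave 29 and 33 UMIs, and Tnf 91 and 69, with intervals of the ratio that include 1. The lower gene was Tnfsf9, the 4-1BB ligand, with 9 and 17 UMIs, and no gene of the list was lower in all 6 sets.

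Chemokines other than CXCR3 ligands were called in both directions, 3 higher and 3 lower of 16, beside 6.06% and 7.63% of all measured genes. Ccl24, which attracts eosinophils, was among the most abundant transcripts of the Cxcl9-positive cells, at 4133 CPM against 2033 in the others, a ratio of 2.03 (1.94 to 2.13). It was detected in 89.8% of positive cells, 66.9% of the others and 8.26% of T-gated cells. Its deposited means were 3.17, 2.88, 2.99, 2.44, 3.16 and 2.68 in the positive cells and 2.10, 2.04, 2.34, 1.5, 2.56 and 1.82 in the others, with set 4 of the positive cells below set 5 of the others. Ccl5 had a ratio of 2.47 (1.52 to 4.14), was detected in 7.92% and 4.56% of cells beside 64.4% of T-gated cells, and was higher in 5 sets. Ccl17 gave 21 UMIs in 1.32% of positive cells and 0 in the others, at least 5.76-fold higher with a floor of 3 UMIs over the group.

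The chemokines called lower were Ccl6, Ccl9 and Pf4. Ccl6 was 4.27 times higher in the other macrophages (3.80 to 4.80), Ccl9 5.39 times (4.12 to 7.14) and Pf4, platelet factor 4, 3.87 times (3.24 to 4.64). The monocyte attractants Ccl2 and Ccl7 had ratios of 0.61 and 0.56 in the positive cells and were lower in all 6 sets, Ccl7 by 0.28 to 0.49. Ccl8 had a ratio of 0.83 in set 1 UMIs but a higher deposited mean in every set, so the sum over UMIs and the mean over cells differed in sign.

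Beyond the lists, the highest ratio belonged to Dnase1l3, a secreted nuclease that degrades DNA on cell debris. It gave 275 UMIs in the Cxcl9-positive cells and 37 in the others, a ratio of 6.11 (4.33 to 8.86), and was detected in 36.0% and 9.12% of cells beside 0.666% of T-gated cells. In the sets its mean was 0.57, 0.42, 0.53, 0.35, 0.49 and 0.45 in the positive cells and at most 0.17 in the others, so the groups did not overlap. Klrb1b, an inhibitory lectin receptor, had a ratio of 5.33 (3.35 to 8.88) and was in 24.1% and 5.17% of cells, against 3.13% of T-gated cells. Klrk1, encoding the activating receptor NKG2D, had a ratio of 3.32 (2.09 to 5.5), and 61.8% of T-gated cells held it. Hk3, a hexokinase of myeloid cells, was at 2.92 (2.01 to 4.36), and Bcl2a1a, an anti-apoptotic protein, at 2.49 (1.99 to 3.14). Plet1, a surface glycoprotein, was at 2.50 (1.82 to 3.49).

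Several of the leading genes are ones that dendritic cells carry. Clec9a, the receptor of type 1 dendritic cells for dead-cell actin, gave 61 UMIs in the Cxcl9-positive cells and 11 in the others, a ratio of 4.56 (2.38 to 9.61), in 14.5% and 2.74% of cells. Over the dendritic-cell list, 2 of 8 genes were called higher and 1 lower, beside 6.06% and 7.63% of all measured genes. The list's median log2 ratio was -0.02. That median was 0.58 with a Cxcl9 limit of 2 and 0.75 with no UMI filter. The list summed to 1310 CPM in the positive cells and 1157 in the others, with Cd209a and Siglech of its 20 genes at 0 in the positive cells. Flt3, a growth factor receptor of dendritic cells, gave 13 and 1 UMIs. Cells with a UMI of Clec9a, Xcr1, Flt3, Ccr7, Cd209a or Siglech were 16.5% of the positive and 4.26% of the other macrophages. Without them Pla2g2d, a secreted phospholipase, had a log2 ratio of 0.95 in place of 2.13, and the part of mixed or misgated dendritic cells in the remaining differences was not tested.

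The smallest named genes rest on few molecules. Dscc1, a replication factor, gave 25 and 5 UMIs, and its direction reversed when the Cxcl9 limit was raised to 2 (log2 ratio -0.39). Traf1, a signalling adaptor of TNF receptors, gave 20 and 4 UMIs, Apol7c 28 and 6, and Dpp4, a surface peptidase, 28 and 6. With a pseudocount of 10 CPM none of these, nor Ly6i, stayed past 2-fold.

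**Figure D2:**
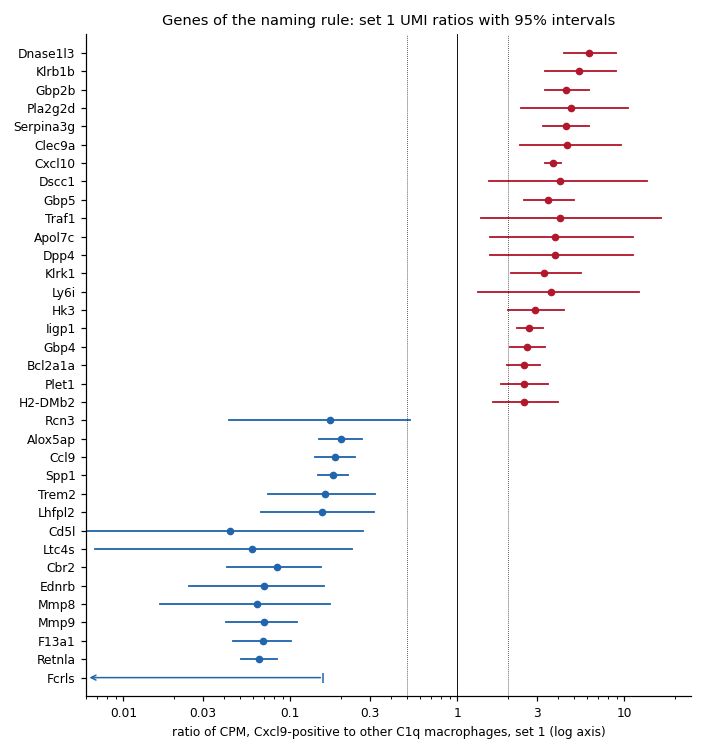
Ratio of CPM in Cxcl9-positive to other C1q macrophages of set 1 (horizontal log axis) for the 20 highest and 15 lowest named genes, with exact 95% Poisson intervals that cover counting error. Points are ratios (red higher, blue lower), dotted lines mark 2-fold, and the arrow is the upper limit for Fcrls, which had 0 UMIs in positive cells; the lower end of the Cd5l interval lies off the axis. Dnase1l3 is at 6.11 and Cxcl10 has the narrowest interval of the higher genes.

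Genes of resident macrophages were lower in the Cxcl9-positive cells: 7 of 18 measured were called lower and none higher, with a median log2 ratio of -0.78. Over all measured genes, 7.63% were called lower and 6.06% higher. F13a1, a coagulation factor subunit made by tissue macrophages, gave 29 UMIs in the positive cells and 347 in the others, 14.6 times higher in the others (9.95 to 22.1). It was detected in 3.63% of positive cells and 24.6% of the others, and its deposited mean was at most 0.23 in any set of the positive cells and at least 0.37 in any set of the others. Cbr2, a carbonyl reductase, was 12 times higher in the others (6.60 to 23.8). Stab1, a scavenger receptor, was 3.32 times higher in the others (2.51 to 4.43), and Gas6, the bridge between dying cells and the receptor Mertk, 2.87 times (2.48 to 3.34).

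Hmox1, which degrades haem, was at 597 CPM in the Cxcl9-positive cells and 1374 in the others. Its deposited means were 1.13, 1.18, 0.95, 1.31, 0.94 and 1.32 in the positive cells, below every set of the others at 1.69, 1.77, 1.69, 1.69, 1.51 and 1.96. The mannose receptor Mrc1 was less different, with a ratio of 0.56 (0.495 to 0.629) and a lower mean in all 6 sets. Mertk itself did not follow Gas6, with a ratio of 1.02 (0.89 to 1.18), nor did the iron exporter Slc40a1 at 0.98 (0.78 to 1.22). Marco and Cd5l, markers of particular resident macrophages, gave 4 and 1 UMIs in the positive cells and 38 and 19 in the others. The resident list therefore did not move as a block, and C1qa, which the rule used, was level.

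Named genes outside the lists were lower in the same way. Fcrls gave 0 UMIs in the Cxcl9-positive cells and 21 in the others, at least 8.51-fold lower with a floor of 3 UMIs over the group. The endothelin receptor Ednrb was 14.4 times higher in the others (6.29 to 40.5), with 6 and 71 UMIs. Leukotriene synthesis was represented by Alox5ap, 4.95 times higher in the others (3.71 to 6.69), and by Ltc4s, with 2 and 28 UMIs. Alox5ap was lower in all 6 sets, by 0.22 to 0.44. Lhfpl2 gave 9 and 48 UMIs and Rcn3 4 and 19.

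Genes of lipid-laden and matrix-degrading macrophages were lower in summed UMIs, with a median log2 ratio of -0.72. Of 18 measured, 8 were called lower and none higher, against 7.63% and 6.06% of all measured genes. Spp1, encoding osteopontin, was 5.52 times higher in the other macrophages (4.52 to 6.79), yet its share of cells was 24.4% in the positive cells and 25.8% in the others, and 25.6% in T-gated cells. Trem2, a lipid receptor, gave 10 and 51 UMIs, in 3.30% and 11.6% of cells. Mmp9, a gelatinase, gave 20 and 238 UMIs in 1.98% and 5.78% of cells, and Retnla of the alternative activation list 72 and 910 UMIs in 6.93% and 11.2% of cells. These shares were taken at unequal depth, and the positive cells were the deeper ones. With all cells thinned to equal depth, Spp1 was in 9.57% of the positive cells and 14.3% of the others. Retnla was then in 4.29% and 8.51%, and Trem2 in 0.33% and 5.47%. The near-equal share for Spp1 was thus not kept at equal depth. The shares of cells with Spp1 or Retnla still differed by less than their summed UMIs. Ctsl, a lysosomal protease, was lower more evenly, by 0.45 to 0.75 in the 6 sets and with a ratio of 0.42 (0.39 to 0.46).

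Some genes of the same list were higher. Itgax, the integrin CD11c, was detected in 72.9% of Cxcl9-positive cells and 40.1% of the others, with a ratio of 1.71 (1.49 to 1.95). Mmp12, macrophage elastase, had a ratio of 0.61 in summed UMIs but a higher deposited mean in all 6 sets, by 0.11 to 0.40. The list as a whole depended on Arg1: its median log2 ratio was -0.026 when both groups were limited to cells with an Arg1 value below 1, and 0.055 when only the reference was.

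Arg1, the arginase that consumes arginine in tumour macrophages, was at 132 CPM in the Cxcl9-positive cells and 537 in the others, 4.05 times higher in the others (3.43 to 4.81). Cells with an Arg1 value of at least 1 were 15.5%, 27.7%, 6.86%, 34.9%, 22.2% and 23.4% of the positive cells in sets 1 to 6, and 29.8%, 37.8%, 19.3%, 49.7%, 27.1% and 29.2% of the others. The positive cells were lower within each set, but set 4 of the positive cells exceeded sets 1, 3, 5 and 6 of the others. The wider list of arginase and alternative activation genes did not share one direction, with a median log2 ratio of -0.52. Of 23 measured, 3 were called higher and 4 lower, beside 6.06% and 7.63% of all measured genes. Mgl2, a lectin of alternatively activated macrophages, was higher with a ratio of 2.11 (1.70 to 2.64), while the related Clec10a was lower at 0.47 (0.39 to 0.58). Egr2, a transcription factor, had a ratio of 1.73 and Ear2, a ribonuclease, of 1.59, both higher in all 6 sets. The hypoxia-induced Ndrg1 was lower in all 6 sets, with a ratio of 0.53 (0.45 to 0.64).

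Nos2, the nitric oxide synthase that competes with arginase for arginine, gave 39 UMIs in the Cxcl9-positive cells and 16 in the others, in 5.28% and 3.65% of cells. The ratio was 2.00 (1.09 to 3.84) and the difference 0.02 to 0.08 in the sets, so Nos2 was rare in both groups. Acod1 and Ido1, other metabolic genes of interferon-activated macrophages, had too few UMIs to be counted.

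The difference in cell-cycle genes depended on the setting. All 19 S phase genes had a log2 ratio above 0 and 5 were called higher, such as Pclaf at 2.15 (1.61 to 2.91). The summed S phase list had a ratio of 1.46 (1.34 to 1.58). On the deposited scale 9 of the 19 were higher in all 6 sets and none lower, beside 13.9% and 7.67% of all genes. The set 1 median of 0.68 was 0.01 as a mean over cells without thinning. It was -0.14 with every cell thinned to 1000 UMIs. The parts of depth and of the weight of each cell in these shifts were not tested. The S phase median was -0.30 without cells that held a Top2a or Mki67 UMI, but that filter itself removes proliferating cells. Of 30 genes of G2 and M phase, none was called and the median was 0.20. Cells with a Top2a or Mki67 UMI were 38.3% of the positive and 32.8% of the other macrophages.

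The deposited scale, in which each cell weighs the same, drew out abundant genes whose ratios were below 2. Of its 32 higher genes, 8 were also called higher in set 1, as were 4 of its 5 lower genes called lower. After Cd74, Ccl24 and the class II chains came Plbd1, a lysosomal hydrolase, by 0.51 to 0.77, the calcium-binding protein Aif1 by 0.54 to 0.75, and Cd52, a small surface glycoprotein, by 0.59 to 0.76. Mpeg1, the macrophage pore-forming protein perforin-2, was higher by 0.40 to 0.65 and the adhesion receptor Vcam1 by 0.48 to 0.81. Tlr12, an endosomal receptor for profilin, was higher by 0.34 to 0.55, with a ratio of 2.17 (1.83 to 2.58) in set 1. The 5 lower genes were Hmox1, Ctsl, Ccl7, Gas6 and F13a1.

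**Figure D3:**
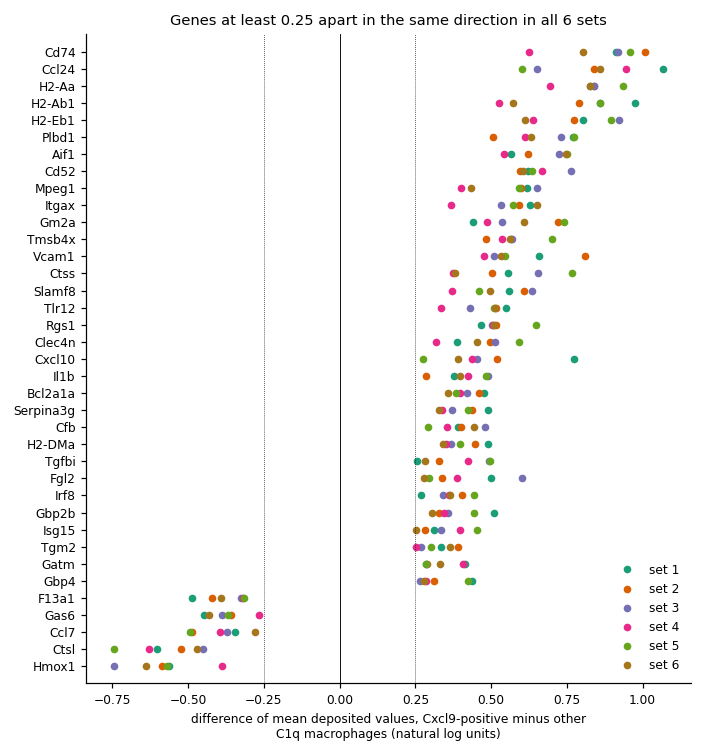
Difference of mean deposited values, Cxcl9-positive minus other C1q macrophages, in natural log units (horizontal axis) for the 32 genes higher and 5 genes lower by at least 0.25 in all 6 sets. Each point is a set, coloured by its number, and dotted lines mark 0.25 in both directions; Cd74 and Ccl24 reach about 1 in some sets, and Hmox1 and Ctsl have the largest negative differences.

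Within the C1q macrophages the interferon and class II genes were higher in bins of higher Cxcl9. The mean value of the class II list had a median over the 6 sets of 1.15 in cells with a Cxcl9 value below 0.5, then 1.53 in cells at 0.5 to 1, 1.59 at 1 to 2, 1.76 at 2 to 3 and 2.07 at 3 and over. It increased across the bins of positive cells in 5 of 6 sets. The GTPase list went from 0.17 to 0.32, 0.31, 0.36 and 0.48 and the other interferon gamma genes from 0.37 to 0.51, 0.51, 0.57 and 0.64, both increasing across the positive bins in 6 of 6 sets. Type I interferon genes had medians of 0.21, 0.25, 0.24, 0.26 and 0.31 and increased in 4 of 6 sets.

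The interferon lists showed no step at the Cxcl9 limit of 1. The GTPase mean was higher at 1 to 2 than at 0.5 to 1 in 1 of 6 sets, and the class II mean in 5 of 6. The bin at 0.5 to 1 held 176 cells in all, 11 to 52 per set, and in set 1 its cells were deep, with a median of 7443 UMIs against 3929.5 at 1 to 2, 2451 at 2 to 3 and 2820 at 3 and over. The part of depth in the first step was not tested. Among the positive bins, the highest Cxcl9 values did not go with the deepest cells.

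The resident list moved in the opposite direction, with medians of 0.72, 0.70, 0.62, 0.55 and 0.50 from the lowest to the highest bin and a decrease across the positive bins in 5 of 6 sets. Gas6 had a median of 0.90 in the lowest bin and 0.36 in the highest, and fell across the positive bins in 6 of 6 sets. Arg1 went from 0.79 to 0.16. The lipid and phagosome list was lower only from 0.85 at 1 to 2 to 0.74 at 3 and over, and C1qa from 3.91 to 3.64. The hepatoma list also decreased across the positive bins in 6 of 6 sets, from 0.48 to 0.40.

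**Figure D4:**
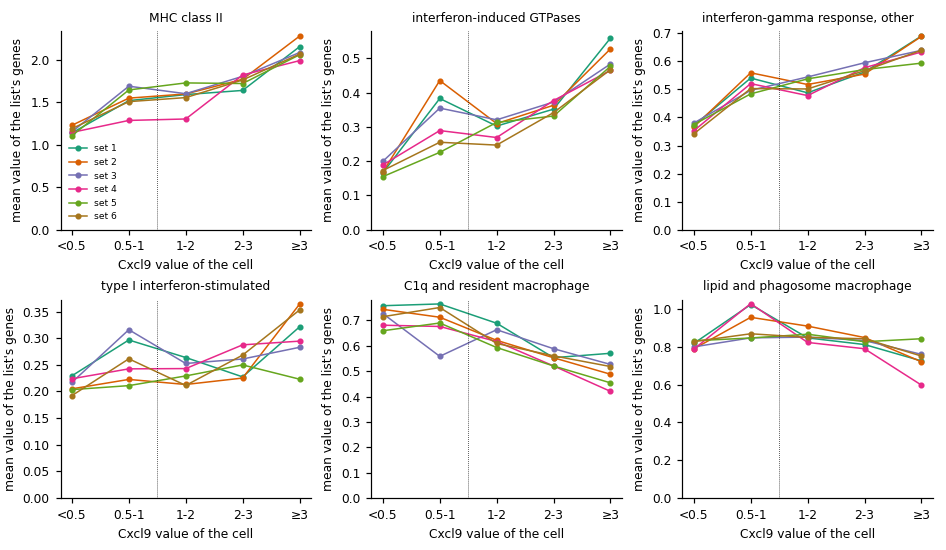
Mean deposited value of the genes of 6 lists (vertical axes, natural log units, each starting at 0) in 5 bins of the cell's Cxcl9 value (horizontal axis), with 1 line per set. The dotted line is the limit of 1 that separates positive cells; MHC class II reaches 1.99 to 2.28 in the highest bin, while the C1q and resident list reaches 0.42 to 0.57.

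Positive cells with an Arg1 value of at least 1 (30 to 113 per set) were compared with positive cells without it. Their Cxcl9 was lower by 0.09 to 0.37 and their Cxcl10 by 0.19 to 0.54 in the 6 sets. H2-Eb1 was lower by 0.36 to 1.07, Slamf8 by 0.26 to 0.53 and Gbp2b by 0.11 to 0.37, again in every set. Spp1 was higher by 0.10 to 0.37, Mrc1 by 0.04 to 0.77, the hypoxia-induced oxidase Ero1l by 0.14 to 0.46 and Nos2 by 0.04 to 0.33. Nos2 was thus higher, and not lower, in the positive cells that also held Arg1. Gas6 and Stab1, both lower in Cxcl9-positive than in other macrophages, had no common sign in this division, at -0.07 to 0.15 (higher in 3 of 6 sets) and -0.05 to 0.12 (4 of 6).

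Positive cells were also divided by Cxcl10. Positive cells with a Cxcl10 value of at least 1 had a Cxcl9 value that differed by -0.07 to 0.20 from the rest, higher in 5 of 6 sets. Iigp1 was higher in them by 0.32 to 0.54 in all 6 sets, whereas H2-Ab1 differed by -0.24 to 0.16 and was higher in 2. Dnase1l3 was higher in them by 0.02 to 0.35 and Spp1 lower by 0.02 to 0.22, each in all 6 sets. Iigp1 and Dnase1l3 were also lower in every set in the positive cells that held Arg1, by 0.10 to 0.32 and 0.06 to 0.31, and the overlap of these divisions was not tested.

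Over all C1q macrophages, the genes whose values correlated most with Cxcl9 were Cd74 (median Pearson r over 6 sets 0.38, range 0.30 to 0.44), H2-Ab1 (0.37), H2-Aa (0.36), H2-Eb1 (0.36), Tmsb4x (0.34), Plbd1 (0.33), Slamf8 (0.32), Cd52 (0.32), Aif1 (0.30) and Sprr2a3 (0.29). The most negative were Ctsl (-0.25), Hmox1 (-0.23), F13a1 (-0.23), Gas6 (-0.21), Leap2 (-0.21), Clec10a (-0.19), Maf (-0.19), Ccl9 (-0.19), Cbr2 (-0.19) and Ednrb (-0.18). These correlations are across the 468 to 852 cells of a set, which share a set, differ in depth and were not independent, so they carry no p-value. In set 1, Sprr2a3 gave 1 UMI in the positive cells and 0 in the others, and Leap2 gave 1 in each, while their r ranged from 0.04 to 0.41 and from -0.35 to -0.03 over the sets. Their place among the strongest therefore rests on sets whose values were adjusted.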

How the data were processed

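The deposited table holds 2000 genes in 53528 cells pooled from all samples. Reads were aligned with STAR 2.7.2b and UMIs counted with PISA, per the labels' protocols, and the submitters' processing notes name the builds GRCh38 and mm10, so the build used for the mouse reads is not clear. The values the authors deposited are natural log values, ln(1 + UMIs per 10000) in set 1, as tested on the table itself. Sets 2 to 6 also hold values below 0, and the step behind them is not given in the sources used here. None of the 53528 columns could be tied to a sample, so no group comparison and no p-value is given.

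Set 1 totals were recovered for 100% of cells (tolerance 1e-06 in the total), and 100% of the values above 0 came out whole within 0.01 of a UMI. The table's genes hold 15.0% of set 1 UMIs, and totals run from 1001 to 261833 per cell. UMIs were summed over cells, divided by the summed totals (CPM) and compared as log2 of CPM + 1. A gene with at least 20 UMIs in both groups together was called at 2-fold, or, on the deposited scale, at a difference of means of 0.25 in 1 direction in all 6 sets. The 6 genes of the rule were left out of the calls. Intervals (95%; exact Poisson for ratios, Clopper-Pearson for shares) and the floor of 3 UMIs cover counting error only. Doublets were scored with Scrublet in scanpy 1.11.5, which marked 91 of 9370 cells, 3 of them Cxcl9-positive macrophages; they were kept, and left out as an alternative. Scripts ran in Python 3.11.15 with numpy 2.4.6 and scipy 1.17.1 and were tested on simulated data. Promoter windows are RefSeq's, GRCm38.p6.

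The cells, gene lists and tests were chosen with earlier results of these data known. Genes were named from those lists, the rule's markers, the 20 highest and 15 lowest called ratios with 1 sign in all 6 sets, and 10 correlates of Cxcl9 in the positive direction; other named genes, the negative correlates among them, were chosen after their values were seen. Alternatives changed the limits of the rule, the pseudocount, the UMI filter, the scaling, the depth, the doublets and the sets.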

Additional observations from a re-analysis of the deposited data

How the results depend on the processing

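No paired analysis was possible because no column carries a replicate number or a group. Of 622 alternative values of the named genes in set 1, 621 kept their sign. The exception was Dscc1, at a log2 ratio of -0.39 with a Cxcl9 limit of 2. That count is no independent test of direction, since these genes were chosen for large ratios with the same sign in every set. The alternatives also reuse the same cells, and a gene has no value under settings that left it too few UMIs. The count of genes 2-fold higher in the Cxcl9-positive cells moved from 58 to 30 with a pseudocount of 10 CPM and to 148 with no UMI filter. The count of lower genes moved from 73 to 43 and 194 under the same settings, and to 45 with cells thinned to 1000 UMIs, where 567 genes were tested in place of 957. The pooled share of 49.3% became 51.5% with a C1q limit of 2.0, 53.8% with a Cxcl9 limit of 0.5 and 29.8% with a Cxcl9 limit of 2. With both T-cell genes at or below 0, 18 genes were higher on the deposited scale in place of 32, and 1 lower in place of 5; with no T-cell limit 3 were lower. Leaving out each set in turn gave 32 to 41 higher and 5 to 7 lower genes. Over the same leave-one-out runs the list medians on the deposited scale kept their direction, at 0.11 to 0.14 for GTPases, 0.01 to 0.02 for type I interferon genes, 0.11 to 0.12 for other interferon gamma genes, 0.64 to 0.68 for class II, -0.08 to -0.07 for resident genes and -0.03 for lipid and phagosome genes.

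Medians of lists in set 1 moved as follows. Each is over the list's genes that passed the UMI filter under that setting, so the genes can differ between settings. Class II, at 0.71, was 0.86 with a Cxcl9 limit of 2, 0.92 as a mean over cells and 0.94 when thinned. The resident list, at -0.78, was -1.10 with a Cxcl9 limit of 2 and -1.15 with at least 2 Cxcl9 UMIs against 0. The lipid and phagosome list, at -0.72, was -0.44 with a C1q limit of 2.0 and -0.45 when thinned, and on the deposited scale it was 0.021 as a median over cells of the list mean, in place of -0.031. The dendritic-cell list, at -0.02, was 0.58 with a Cxcl9 limit of 2 and 0.75 with no UMI filter, and the S phase list, at 0.68, was -0.14 when thinned.

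Further alternatives were chosen after seeing the data. Their medians are likewise over the genes that passed the UMI filter. Without cells holding a Top2a or Mki67 UMI the medians were 1.2 for GTPases (0.74 before), 0.52 for class II and -0.52 for the resident list. For S phase the median was -0.30, but that filter itself removes proliferating cells. Without cells holding a dendritic-cell gene the resident list was at -0.48. With Arg1 below 1 in both groups class II was at 0.54 and the lipid and phagosome list at -0.026; with that limit on the reference alone they were at 0.48 and 0.055, and the arginase list, at -0.52, was at 0.013. The cause of these shifts was not tested. Calls near 20 UMIs rest on few molecules.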

Other observations

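Stress and mitochondrial genes, often read as signs of cell handling, were level as groups between the Cxcl9-positive and the other C1q macrophages of set 1. Of 10 stress and heat shock genes with at least 20 UMIs none was called, and the median log2 ratio was 0.03. Hspa1b, an inducible heat shock protein, was at 312 CPM in the positive cells and 161 in the others, a ratio of 1.94 (1.63 to 2.32), with a higher mean in all 6 sets. It was detected in 34.3% of positive cells, 21.6% of the others and 62.8% of T-gated cells. Of 9 mitochondrial genes none was called, and the median was 0.07.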
